A study of Mus musculus with 15 samples.

Results

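The samples compared here were mouse embryonic stem cells under the highest dose of 2-deoxyglucose (2-DG), 3 samples, and under the highest dose of oligomycin, 3 samples, so 6 of the 15 RNA-seq samples of the study. They were set against each other over 13284 of the 32152 genes in the expression table, those with a level of at least 1 FPKM (fragments scaled to exon length and to the total of mapped fragments) in at least 3 of the 15 samples, and the other 18868 genes were not tested. 2-DG is a glucose analogue that hexokinase phosphorylates but that glycolysis cannot carry further, and, as an analogue of mannose too, it interferes with the building of N-linked glycans in the endoplasmic reticulum (ER). Oligomycin blocks the proton channel of the mitochondrial ATP synthase, so that respiration can no longer be coupled to ATP production. The pair therefore sets a block of glycolysis against a block of oxidative phosphorylation, the main routes by which a cell makes ATP.

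All 5 groups of the study were C57BL/6 mouse embryonic stem cells in medium with serum and leukemia inhibitory factor, the cytokine that keeps mouse stem cells undifferentiated, and each group had 3 samples. The high 2-DG group received 10 mM 2-DG for 48 h and the high oligomycin group 10 nM oligomycin for 48 h. The low-dose groups received 5 mM 2-DG or 1 nM oligomycin for 48 h, and the remaining group was mock treated, with no time given. The doses of the agents are on different scales and were not matched for effect, so a difference between the agents is a difference between these doses. The labels do not say whether the 3 samples of a group came from separate cultures, so the p-values measure the spread between these samples, which may be technical.

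The depth recovered from the steps between low FPKM values was about 17400000 to 19200000 reads per sample over the 15 samples. Pearson's r of log2(FPKM + 1) over the tested genes was 0.992 to 0.994 among the 2-DG samples, 0.985 to 0.994 among the oligomycin samples and 0.922 to 0.930 between these groups. Oligomycin replicate 1 stood apart from replicates 2 and 3: its deviation from the group mean rose with exon length (Spearman's rho 0.52 over genes), against -0.46 and -0.38 in the others. Deviations from a mean of 3 samples balance out, so the opposite signs are in part forced. The mock samples had rho of 0.36, 0.05 and -0.35, which bears on the values against mock. The difference between the 2-DG and oligomycin groups was nearly unrelated to exon length (rho 0.03 over 13275 genes). Counts of listed genes that moved by over 1.5 times without oligomycin replicate 1 are given beside the count.

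The stem cell label was checked on 12 defining markers, among them the pluripotency factors Pou5f1 (Oct4), Sox2 and Nanog, and all 12 passed the filter. Their summed level was 2079 to 2265 FPKM in the mock samples, 1606 to 1640 FPKM under 2-DG and 456 to 597 FPKM under oligomycin. Markers of other cells were present too. The summed level of 22 fibroblast markers was 1418 to 1506 FPKM in mock, 1722 to 1857 under 2-DG and 3894 to 4459 under oligomycin, and that of 16 smooth muscle contractile genes was 1344 to 1359, 1062 to 1101 and 4340 to 4602. The summed level of 16 macrophage markers was 211 to 233, 119.9 to 123 and 281 to 294 FPKM in the same order. Stem cell markers were thus present in every sample, though far below mock under oligomycin, while collagens and smooth muscle genes were abundant in all groups. What share of the cells in each sample were stem cells was not tested. In bulk RNA, fewer cells of a type and less RNA per cell cannot be told apart, and this touches every result below.

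**Figure D1:**
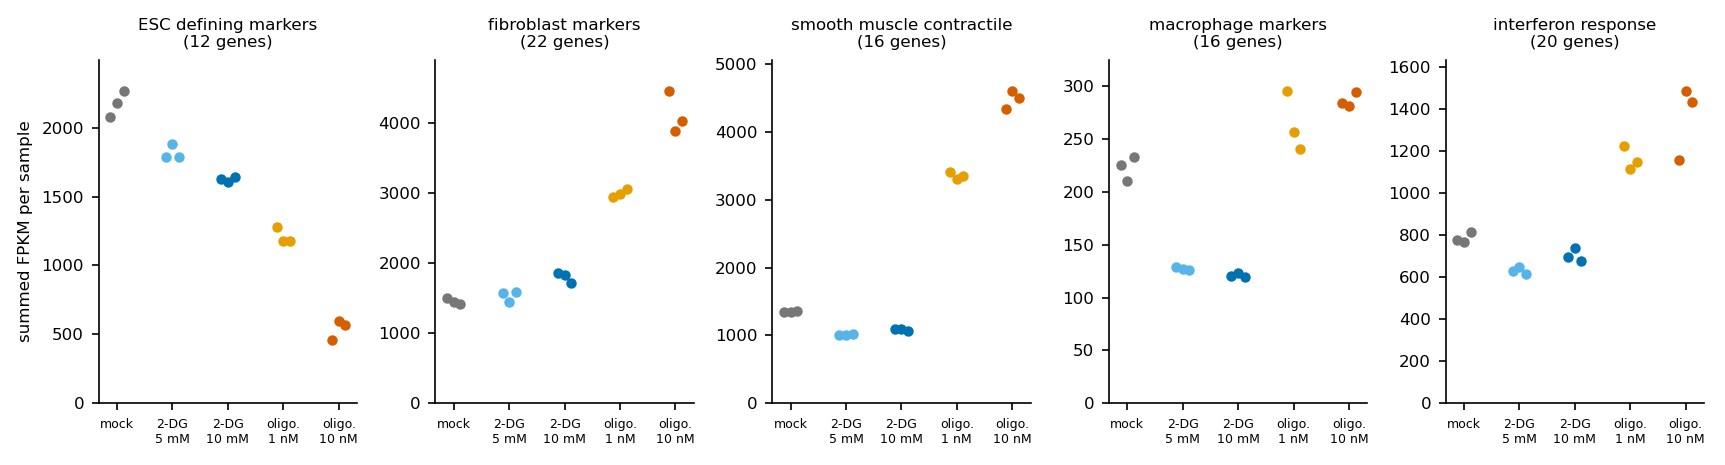
Summed FPKM of each marker list in each of the 15 samples, with 1 point per sample and a separate linear axis from 0 for each list. The stem cell markers are lowest in the 3 samples at 10 nM oligomycin (456 to 597 FPKM), where the fibroblast markers (3894 to 4459) and the smooth muscle genes (4340 to 4602) are highest.

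Most of the transcriptome differed between the agents. At an adjusted p under 0.05 (limma on log2(FPKM + 1), Benjamini-Hochberg over all genes tested), 9411 genes were called, which is 70.8% of those tested: 5003 were higher (37.7%) and 4408 lower (33.2%) under 2-DG than under oligomycin. The call with a difference of at least 2-fold held for 823 genes that were higher (6.2%) and 617 that were lower (4.64%). The 3 samples of each group did not overlap in 71.3% of genes. The median difference over all genes was 0.04 on the log2 scale. With so many genes called, the call alone separates little, and the lists of known genes below are read by how many of their members were called, in which direction, and by their median beside these shares. Every log2 difference here is of FPKM + 1, a scale on which the changes of weakly expressed genes come out too small, and the differences are written as 2-DG minus oligomycin unless mock is named.

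The 12 genes with the largest difference in favour of 2-DG were led by Calcoco2, which encodes a receptor for selective autophagy. It stood at 39.7, 39.5 and 41.3 FPKM in the 2-DG samples and at 1.06, 1.49 and 1.45 FPKM in the oligomycin samples, a log2 difference of 4.14 (SE 0.09, adjusted p = 3.3e-13). Its mock samples, at 20.1, 23.5 and 23.2 FPKM, lay between the agents, so the gene rose under 2-DG (0.83 against mock) and fell under oligomycin (-3.32). Ifitm1, an interferon-induced membrane protein gene that is also expressed in pluripotent cells, read 81.9, 80.9 and 80.3 FPKM under 2-DG and 3.25, 4.91 and 5.12 FPKM under oligomycin (3.94, SE 0.10, adjusted p = 1.8e-12). Trh, which encodes the precursor of thyrotropin-releasing hormone, read 216, 209 and 207.5 FPKM against 12.1, 16.3 and 14.4 FPKM (3.80, SE 0.09, adjusted p = 4.7e-13). Neither gene's groups came near each other. Against mock, Ifitm1 rose under 2-DG (0.72) and fell under oligomycin (-3.21). Trh did not pass against mock under 2-DG (0.15, limma adjusted p = 0.17) and fell under oligomycin (-3.66). Of the other 9 genes, Dppa3, Tcl1, Gdf3, Nr5a2, Prdm14 and Nr0b1 are genes of the naive pluripotent state, with log2 differences of 2.53 to 3.15. Rhox6 is a homeobox gene of the reproductive cluster on the X chromosome (2.51), Alg13 acts in N-glycan assembly (2.51), and Krt42 encodes a keratin (2.60).

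The 12 genes with the largest difference in favour of oligomycin included 4 of the listed smooth muscle genes. Pf4, which encodes the chemokine platelet factor 4, made by megakaryocytes and macrophages, led the 12, at 0.540, 0.721 and 0.6105 FPKM under 2-DG and 15.6, 16.55 and 19.25 FPKM under oligomycin (-3.48, SE 0.08, adjusted p = 8.7e-13). Mgll, monoglyceride lipase, read 2.795, 2.90 and 2.60 against 25.9, 29.1 and 28.2 FPKM (-2.93, SE 0.06, adjusted p = 1.9e-13). Loxl3, a lysyl oxidase that cross-links matrix proteins, read 6.66, 6.63 and 6.14 against 45.7, 47.5 and 45.9 FPKM (-2.66, SE 0.05, adjusted p = 7.2e-14). For all of these genes the oligomycin samples were far above every 2-DG sample. Against mock, Pf4 and Loxl3 fell by more under 2-DG (-2.95 and -1.62) than they rose under oligomycin (0.53 and 1.04). Mgll fell by less under 2-DG (-1.11) than it rose under oligomycin (1.83). The smooth muscle genes Actg2, Lmod1, Acta2 and Myh11 had log2 differences of -2.90, -2.69, -2.60 and -2.58, and Tgfb3, a ligand of the transforming growth factor beta family, one of -2.63. Vgf (-2.49) encodes a neuropeptide precursor, Crispld2 (-2.45) a secreted protein and Foxs1 (-2.43) a forkhead factor. The remaining gene, the microRNA gene Mir145a (-2.57), read 0.795, 1.485 and 0.786 against 7.70, 15.35 and 10.7 FPKM, values that rest on few reads because the gene is short.

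**Figure D2:**
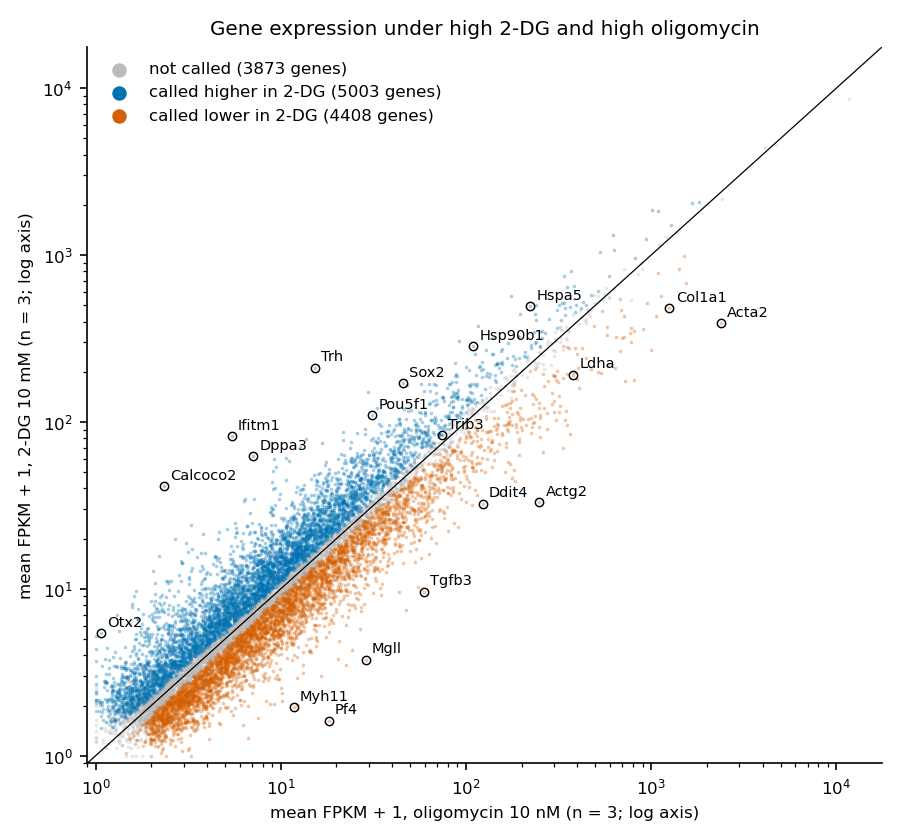
Mean FPKM + 1 of each of the 13284 tested genes under 10 nM oligomycin (x axis) and 10 mM 2-DG (y axis), both on log axes, with n = 3 per group and the line of equality drawn. Blue genes were called higher and orange genes lower under 2-DG, grey genes were not called, and circled genes are named in the text. Calcoco2, Ifitm1 and Trh lie far above the line, Pf4, Mgll and Acta2 far below it, and Trib3 close to it.

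The genes of ER chaperones were mostly higher under 2-DG than under oligomycin. These proteins fold newly made glycoproteins, and cells raise them in the unfolded protein response, in which the factors ATF6 and XBP1 bind an ER stress element in the promoters of their targets. To show that element, 3 genes with a match were chosen among those that differed most. The 250 bases before each start are printed here (RefSeq, GRCm38.p6, 5′ to 3′ on the gene's strand). They lie at chr2:34771840-34772089 on the plus strand for Hspa5, at chr10:86705445-86705694 on the minus strand for Hsp90b1 and at chr15:88819396-88819645 on the plus strand for Creld2. Capitals mark each match to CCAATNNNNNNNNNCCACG on either strand.
Hspa5: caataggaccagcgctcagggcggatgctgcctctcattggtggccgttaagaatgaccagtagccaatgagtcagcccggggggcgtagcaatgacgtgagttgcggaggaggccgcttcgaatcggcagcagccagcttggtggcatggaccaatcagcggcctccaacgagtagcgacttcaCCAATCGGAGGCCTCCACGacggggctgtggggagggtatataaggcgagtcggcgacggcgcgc
Hsp90b1: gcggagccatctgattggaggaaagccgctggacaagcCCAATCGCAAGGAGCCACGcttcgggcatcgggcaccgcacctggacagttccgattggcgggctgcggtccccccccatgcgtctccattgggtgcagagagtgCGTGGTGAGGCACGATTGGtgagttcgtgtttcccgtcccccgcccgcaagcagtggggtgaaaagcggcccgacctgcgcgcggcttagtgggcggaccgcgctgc
Creld2: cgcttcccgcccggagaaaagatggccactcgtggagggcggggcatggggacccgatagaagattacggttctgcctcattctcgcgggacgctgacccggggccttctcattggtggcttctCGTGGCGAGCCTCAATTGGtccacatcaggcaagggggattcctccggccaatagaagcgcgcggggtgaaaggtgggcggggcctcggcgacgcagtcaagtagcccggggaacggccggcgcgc

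The element, searched in windows from 250 bases before to 50 bases after the start, occurred in the promoters of 7 of the 15 listed chaperone genes that the RefSeq table holds (46.7%): Hspa5, Hsp90b1, Calr, Canx, Pdia6, Dnajc3 and Creld2. It occurred in 37 of 27025 genes of the whole promoter table (0.137%) and in 16 of the 9378 tested genes found in the table (0.171%). Among the listed chaperone genes, Pdia3, Pdia4, P4hb, Dnajb9, Dnajb11, Sdf2l1, Xbp1 and Ern1 held no match. A match describes these letters and shows no binding.

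Hspa5, which encodes BiP, the main chaperone of the ER lumen, read 462, 504 and 508 FPKM under 2-DG and 203, 237 and 226 FPKM under oligomycin (1.15, SE 0.07, adjusted p = 2.7e-09). The mock samples stood at 214, 219 and 207 FPKM, so the gene rose under 2-DG (1.20 against mock) and did not pass the test under oligomycin (0.05, adjusted p = 0.48). Hsp90b1, the ER form of HSP90, read 257, 292.5 and 298 against 120.0, 99.45 and 106 FPKM (1.38, SE 0.08, adjusted p = 2e-09), and Creld2, a folding enzyme of the ER, 60.2, 61.0 and 54.05 against 20.47, 25.5 and 25.55 FPKM (1.26, SE 0.08, adjusted p = 8.7e-09). In each of these genes every 2-DG sample was above every oligomycin sample and above every mock sample. Against mock, Hsp90b1 and Creld2 fell under oligomycin (-0.32 and -0.41).

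Of the 20 listed ER chaperones and folding enzymes, 15 were higher and 2 lower under 2-DG, where 37.7% and 33.2% of all genes were, and their median difference was 0.77 beside 0.04 for all genes. Calr and Pdia4, a lectin chaperone and a disulfide isomerase chosen here after their values were seen, had differences of 0.88 and 1.14. The lower members were Ero1l, an oxidase of the ER, at 27.2, 28.9 and 30.9 against 80.4, 64.9 and 68.8 FPKM (-1.27, SE 0.07, adjusted p = 1e-09), and Ern1 (-0.27), a sensor of unfolded proteins, whose adjusted p rounds to 0.05 and lies just under the threshold. The lower count was 1 under 8 of the alternatives, among them the fit without oligomycin replicate 1. Xbp1 itself had a difference of 0.10 that did not pass. The genes that dispose of misfolded ER proteins were divided: of 17, 5 were higher and 4 lower, with a median of 0.06, though Herpud1, a scaffold of that machinery, was higher under 2-DG at 45.1, 46.3 and 40.8 against 25.7, 30.4 and 28.2 FPKM (0.63, SE 0.07, adjusted p = 1.1e-06). Under quantile normalization 3 of that list were higher and 7 lower, and with the length trend removed 7 were lower. Of 34 genes for making hexosamines, dolichol and N-glycans, the route that 2-DG can disturb as a mannose analogue, 9 were higher and 9 lower, with a median of -0.00. The lower count was 14 under median ratio scaling and 4 without oligomycin replicate 2.

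The ATF4 arm of the stress response did not separate the agents in the same way. ATF4 is the transcription factor made when phosphorylated eIF2alpha slows protein synthesis, and it drives genes for amino acid supply, for further stress factors and for cell death. Ddit3 (CHOP), a death-promoting target, read 30.9, 31.2 and 30.45 FPKM under 2-DG and 39.2, 50.9 and 47.1 FPKM under oligomycin, beside 9.14, 9.11 and 9.24 FPKM in mock. It rose under both agents (1.65 and 2.19 against mock), and every 2-DG sample was below every oligomycin sample (-0.54, SE 0.07, adjusted p = 9.6e-06). Trib3, a pseudokinase that feeds back on the response, read 85.7, 82.0 and 78.7 against 65.1, 76.9 and 78.5 FPKM, with mock at 19.2, 21.3 and 20.05 FPKM. Its lowest 2-DG sample lay close to its highest oligomycin sample, and the small difference between the agents (0.16, SE 0.06, adjusted p = 0.035) was not called without 2-DG replicate 1 (0.13, adjusted p = 0.12), without 2-DG replicate 2 (0.16, adjusted p = 0.07) or without oligomycin replicate 1 (0.08, adjusted p = 0.15). In a fit of the 6 samples alone and under median ratio scaling it was not called either (limma adjusted p = 0.13 and 0.08).

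Some of the ATF4 genes leaned to 2-DG and some to oligomycin. Atf5, a related factor that controls stress genes, read 139, 132 and 129 FPKM under 2-DG and 60.65, 73.2 and 69.3 FPKM under oligomycin (0.97, SE 0.09, adjusted p = 3.9e-07). Stc2, a secreted glycoprotein, read 14.7, 12.7 and 13.1 against 5.87, 6.96 and 6.735 FPKM (0.95, SE 0.07, adjusted p = 1.5e-08). Both rose under both agents, and by more under 2-DG (2.28 against 1.31 for Atf5, 1.79 against 0.85 for Stc2, each from mock). Ddit4 (REDD1), an inhibitor of the growth kinase mTORC1, went the other way at 31.45, 34.6 and 28.15 against 98.6, 135 and 133 FPKM (-1.92, SE 0.10, adjusted p = 1.1e-09). Ppp1r15a (GADD34), the phosphatase subunit that ends the response, read 36.45, 34.2 and 33.3 against 57.5, 65.3 and 64.5 FPKM (-0.83, SE 0.06, adjusted p = 2e-08). The groups of these 4 genes did not overlap. With mock at 48.2, 51.9 and 56.03 FPKM, Ddit4 fell under 2-DG (-0.71) and rose under oligomycin (1.20). Of the 20 listed ATF4 factors and effectors, 7 were higher and 10 lower under 2-DG (median -0.15), beside 37.7% and 33.2% of all genes. The lower count was 5 in a fit of the 6 samples alone and 6 without oligomycin replicate 2 or without replicate 3. Against mock, 17 of the list rose and 2 fell under 2-DG, and 18 rose and 1 fell under oligomycin. Over all genes tested, 21.4% rose and 26.8% fell against mock under 2-DG, and 34% rose and 41.7% fell under oligomycin.

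ATF4 and its partners are known to bind a response element of their own in target genes. Chac1, which encodes a glutathione-degrading enzyme, is shown as an example chosen for its match after the values were seen. The 250 bases before its start are printed with the match to TGATGNAA, on either strand, in capitals (RefSeq, GRCm38.p6, chr2:119350992-119351241, plus strand, 5′ to 3′).
Chac1: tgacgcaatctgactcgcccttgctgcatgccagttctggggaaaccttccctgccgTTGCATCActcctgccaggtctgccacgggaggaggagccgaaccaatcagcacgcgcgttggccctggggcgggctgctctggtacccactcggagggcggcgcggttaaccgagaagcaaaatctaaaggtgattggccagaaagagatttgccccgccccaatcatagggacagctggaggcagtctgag

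The element occurred in the windows of 6 of the 19 listed ATF4 genes found in the table (31.6%), in 255 of the 9378 tested genes found there (2.72%) and in 1219 of all 27025 genes of the table (4.51%). It occurred in 0 of the 15 ER chaperone windows, and the ER stress element in 0 of the 19 windows of the ATF4 list, which says only that these letters are not in these windows. Chac1 itself differed little between the agents (-0.13, adjusted p = 0.036) and rose under both (1.25 and 1.38 against mock).

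Genes for amino acid supply were more often higher under 2-DG. Among all genes tested, 37.7% were higher and 33.2% lower. Of 20 cytosolic aminoacyl-tRNA synthetases, the enzymes that load transfer RNAs, 16 were higher and 0 lower, with a median of 0.36, and under quantile normalization 1 was lower. The enzyme for threonine, Tars, read 139, 141 and 146 FPKM under 2-DG and 87.95, 90.5 and 90.2 FPKM under oligomycin (0.66, SE 0.05, adjusted p = 1.6e-08). Of 15 amino acid transporters, 11 were higher and 1 lower (median 0.39). The lower count was 0 under 8 of the alternatives, among them the fits without any 1 of the 2-DG replicates or without oligomycin replicate 1. Slc7a3, a carrier of cationic amino acids such as arginine, read 66.2, 61.0 and 61.3 against 20.6, 20.9 and 18.7 FPKM, with mock at 43.0, 45.5 and 40.2 FPKM (1.60, SE 0.06, adjusted p = 2.7e-11). The 3 groups of Slc7a3 were apart, and it rose under 2-DG and fell under oligomycin (0.54 and -1.06).

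Of 17 genes for serine, asparagine, proline and one-carbon synthesis, 9 were higher and 2 lower under 2-DG (median 0.31). The shares of all genes were 37.7% and 33.2%. Without oligomycin replicate 1, 4 of the list were lower. Psat1, an aminotransferase of serine synthesis, read 182, 187 and 191 FPKM under 2-DG and 89.3, 84.7 and 90.1 FPKM under oligomycin, with mock at 108, 108 and 109.9 FPKM (1.08, SE 0.05, adjusted p = 1.4e-10). Shmt1, the cytosolic serine hydroxymethyltransferase, read 27.7, 26.8 and 25.8 against 7.30, 8.98 and 8.12 FPKM, with mock at 31.5, 33.6 and 34.2 FPKM (1.61, SE 0.06, adjusted p = 5e-11). Psat1 therefore rose under 2-DG and fell under oligomycin (0.78 and -0.30), whereas Shmt1 fell under both agents (-0.30 and -1.90). The list's median stood above the 0.04 of all genes, as did those of the synthetases and transporters.

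Pluripotency genes had the highest median of all lists. The network is led by Pou5f1, Sox2 and Nanog, and the naive state of mouse stem cells adds factors such as Esrrb, Klf2, Tfcp2l1 and Prdm14. Pou5f1 read 117, 112 and 98.4 FPKM under 2-DG and 24.7, 33.8 and 32.1 FPKM under oligomycin, with mock at 109, 126 and 132 FPKM (1.83, SE 0.10, adjusted p = 1.7e-09). Sox2 read 158, 172 and 181 against 38.2, 49.5 and 46.3 FPKM, with mock at 161.5, 176 and 176 FPKM (1.91, SE 0.09, adjusted p = 1.8e-10). Nanog read 164, 164 and 173 against 48.0, 62.1 and 58.2 FPKM, with mock at 191, 197 and 201 FPKM (1.56, SE 0.07, adjusted p = 3.3e-10). For each of the 3 genes every 2-DG sample was above every oligomycin sample. Against mock, Pou5f1 (-0.16, adjusted p = 0.22) and Sox2 (-0.01, adjusted p = 0.96) did not pass the test under 2-DG and Nanog fell (-0.23), while all 3 fell under oligomycin (-1.99, -1.92 and -1.79).

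All 24 listed genes of core and naive pluripotency were higher under 2-DG than under oligomycin, with a median of 1.82. For 22 of them the difference was at least 2-fold. Among all genes, 37.7% were called higher, and 6.2% were called and at least 2-fold higher. Against mock, 11 of the list rose and 7 fell under 2-DG, beside 21.4% and 26.8% of all genes. The share of the list that fell was near that of all genes. Under oligomycin 0 of the list rose and 23 fell, beside 34% and 41.7% of all genes, and Tbx3 (0.12, adjusted p = 0.074) did not pass. Some naive genes thus stood above mock under 2-DG. Nr0b1 (Dax1), a nuclear receptor of the pluripotency network, read 81.1, 78.3 and 76.2 FPKM under 2-DG, 38.5, 41.6 and 41.9 FPKM in mock and 11.8, 12.7 and 13.8 FPKM under oligomycin. Tcl1, a co-activator of the kinase AKT, read 21.9, 24.25 and 23.05, then 11.9, 11.1 and 12.7, then 2.103, 1.835 and 2.89 FPKM in the same order. For both genes the 3 groups were fully apart. Dppa3 (Stella), a maternal factor that protects DNA methylation in the early embryo, read 54.0, 63.6 and 67.4 FPKM under 2-DG and 4.77, 6.45 and 7.06 FPKM under oligomycin (3.15, SE 0.14, adjusted p = 1.2e-10), and did not pass against mock under 2-DG (0.30, adjusted p = 0.087). The summed fibroblast markers, 1722 to 1857 FPKM under 2-DG and 3894 to 4459 FPKM under oligomycin, moved in the opposite direction, and their part in the result was not tested.

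**Figure D3:**
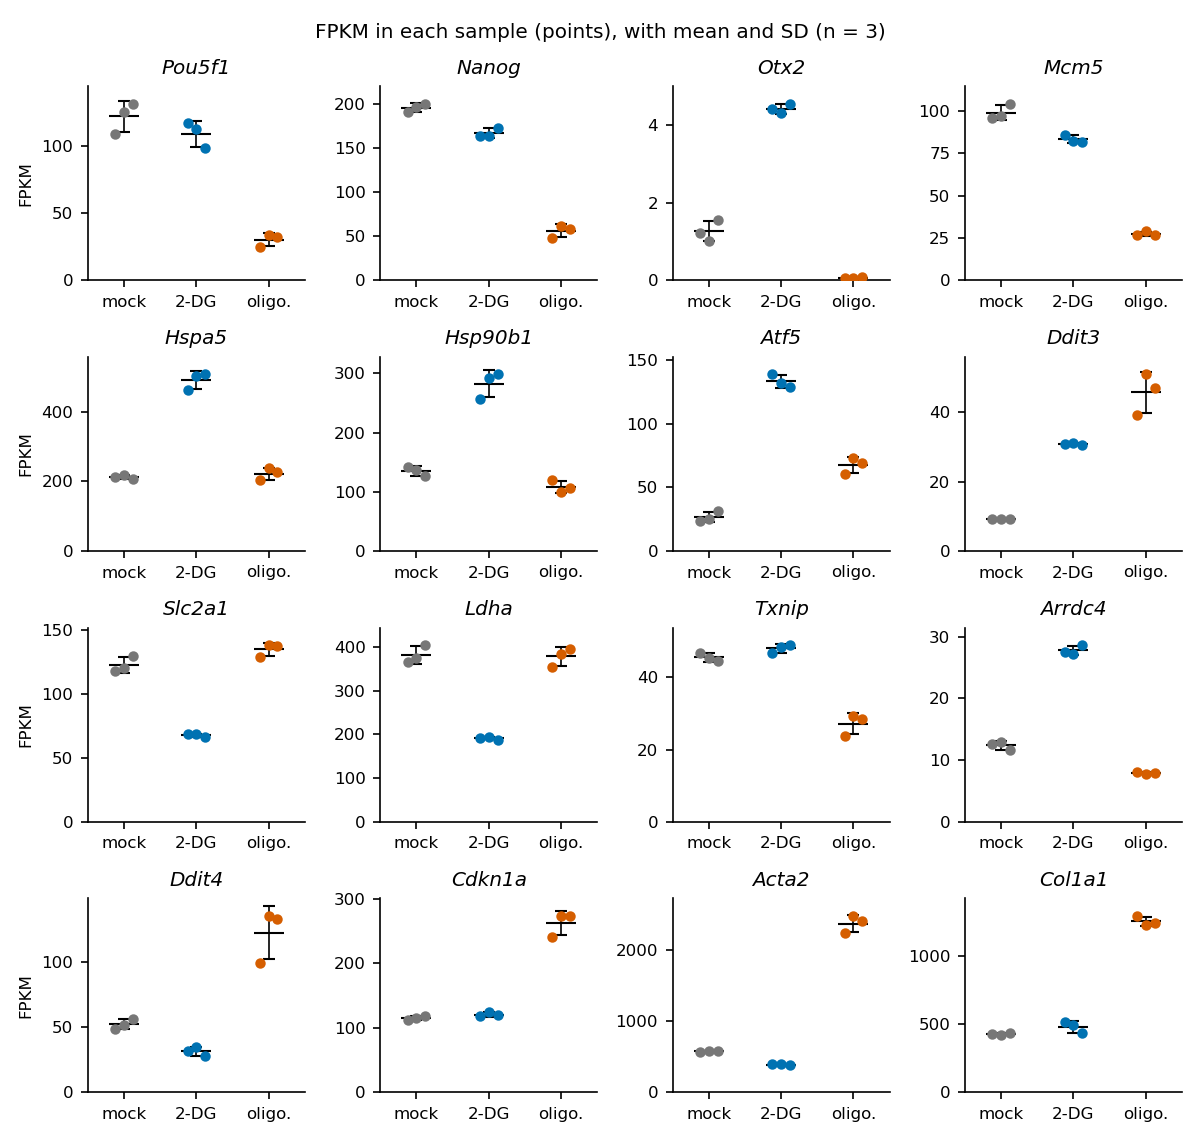
FPKM of 16 genes in each mock, 10 mM 2-DG and 10 nM oligomycin sample, with 1 point per sample, a bar at the mean and whiskers of 1 SD (n = 3), on linear axes from 0. The oligomycin samples of Pou5f1 (24.7, 33.8 and 32.1) lie below both other groups, the 2-DG samples of Hspa5 (462, 504 and 508) above them and those of Slc2a1 (68.2, 68.4 and 66.0) below them, and the oligomycin samples of Acta2 (2231, 2477 and 2403) above them.

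Genes of the later epiblast were not uniform. Of 16 formative and primed genes, 7 were higher and 6 lower (median 0.04), beside 37.7% and 33.2% of all genes. Otx2, the homeobox factor that starts the exit from the naive state, read 4.41, 4.30 and 4.55 FPKM under 2-DG, 1.23, 1.02 and 1.55 FPKM in mock and 0.0476, 0.0633 and 0.0786 FPKM under oligomycin, where it rested on few reads (2.35, SE 0.09, adjusted p = 2.7e-11). Foxd3, a forkhead factor of the same transition, read 11.01, 9.93 and 9.30, then 4.15, 3.73 and 5.28, then 1.30, 1.665 and 1.19 FPKM in that order (2.22, SE 0.10, adjusted p = 2.6e-10). Both rose under 2-DG (1.26 and 1.05) and fell under oligomycin (-1.09 and -1.17). The ERK-responsive members Etv4 (-0.56) and Dusp6 (-0.48), named after their values were seen, were lower under 2-DG, and Fgf5 was under the filter.

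Nodal signalling, which patterns the epiblast and is active in cultured stem cells, leaned to 2-DG in its feedback inhibitors. Lefty2, a secreted Nodal inhibitor and target, read 37.6, 38.7 and 39.8 FPKM under 2-DG and 7.575, 9.18 and 7.52 FPKM under oligomycin, with mock at 52.1, 56.75 and 54.4 FPKM (2.13, SE 0.07, adjusted p = 1.2e-11). Lefty1 read 60.1, 55.2 and 54.4 against 20.3, 28.8 and 27.0 FPKM, with mock at 167, 185 and 208 FPKM (1.14, SE 0.10, adjusted p = 2.4e-07). Both fell under both agents, and by more under oligomycin (-2.61 and -2.84) than under 2-DG (-0.48 and -1.70). Over the 15 Nodal genes tested, 8 were higher and 4 lower, among the latter Furin (-0.78), a convertase that matures the ligand. Of all genes tested, 37.7% were higher and 33.2% lower.

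Of 15 genes of DNA methylation and demethylation, 11 were higher and 2 lower under 2-DG (median 0.70), beside 37.7% and 33.2% of all genes. The lower count was 4 with the length trend removed. Tet1, which oxidises methylcytosine, read 26.0, 20.7 and 21.6 FPKM under 2-DG and 7.055, 4.73 and 4.85 FPKM under oligomycin (1.87, SE 0.12, adjusted p = 7.3e-09). Dnmt3b, a de novo methyltransferase, read 30.0, 29.5 and 32.3 against 12.6, 12.5 and 11.4 FPKM, with mock at 92.3, 92.4 and 93.3 FPKM (1.26, SE 0.05, adjusted p = 6.3e-11). The groups of both genes were apart, and both fell under both agents (-0.40 and -2.28 for Tet1, -1.57 and -2.83 for Dnmt3b).

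Proliferation genes were mostly higher under 2-DG as well. The MCM proteins form the helicase that opens replication origins. Mcm5 read 86.1, 82.3 and 81.5 FPKM under 2-DG and 26.8, 28.9 and 26.65 FPKM under oligomycin, beside 96.0, 96.8 and 104 FPKM in mock (1.57, SE 0.05, adjusted p = 6.4e-12), and Mcm2, Mcm3 and Mcm7 had differences of 1.34, 1.35 and 1.35. Of 30 genes of DNA replication and the cell cycle, 28 were higher and 2 lower (median 0.99), beside 37.7% and 33.2% of all genes. The lower members were the cyclins Ccnd2 (-0.64) and Ccnd1 (-0.41). Against mock, 26 fell under 2-DG (median -0.28) and 28 under oligomycin (median -1.36), where 26.8% and 41.7% of all genes fell. The summed stem cell markers, 1606 to 1640 FPKM against 456 to 597 FPKM, moved with these genes, and their part was not tested.

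Genes that hold back the cell cycle were mostly higher under oligomycin. Cdkn1a (p21), the p53 target that arrests cells before replication, read 118, 124.5 and 119.7 FPKM under 2-DG and 242, 273 and 274 FPKM under oligomycin, with mock at 113, 115 and 118 FPKM (-1.11, SE 0.06, adjusted p = 5.2e-10). The 2-DG samples were all below the oligomycin samples and did not pass against mock (0.07, adjusted p = 0.34). Of the 6 other listed inhibitors of cyclin-dependent kinases, 5 were lower and 1 was higher under 2-DG. The shares of all genes were 33.2% and 37.7%. Cdkn2a read 12.3, 13.35 and 9.295 against 27.4, 40.5 and 40.35 FPKM (-1.54, SE 0.15, adjusted p = 3.3e-07), and Cdkn2b read 19.7, 17.2 and 17.2 against 44.3, 54.5 and 54.5 FPKM (-1.45, SE 0.09, adjusted p = 3.2e-09). Cdkn1b (p27) was the exception at 12.5, 13.4 and 13.2 against 7.625, 8.42 and 8.28 FPKM (0.62, SE 0.07, adjusted p = 1.3e-06).

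Of 20 genes listed as p53 targets, p53 itself included, 17 were lower and 2 higher under 2-DG, with a median of -0.91. Among all genes tested, 33.2% were lower and 37.7% higher. Fas, a death receptor, read 3.49, 4.41 and 4.49 FPKM under 2-DG and 10.1, 11.8 and 11.3 FPKM under oligomycin (-1.24, SE 0.08, adjusted p = 7.9e-09). The higher members were Trp53 (1.02), which encodes p53, and Sesn1 (0.21), both named after their values were seen. The summed fibroblast markers (1722 to 1857 against 3894 to 4459 FPKM) moved with the targets, and their part was not tested.

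Genes of glycolysis were mostly lower under 2-DG than under oligomycin, and so was a glucose transporter gene. Slc2a1 (GLUT1), a glucose transporter of the plasma membrane, read 68.2, 68.4 and 66.0 FPKM under 2-DG and 129, 138 and 138 FPKM under oligomycin, with mock at 118, 120.3 and 129.7 FPKM (-0.99, SE 0.05, adjusted p = 3.9e-10). Ldha, which turns pyruvate to lactate, read 192, 193 and 188 against 354.5, 383.5 and 396 FPKM, with mock at 365, 373.5 and 404 FPKM (-0.98, SE 0.06, adjusted p = 3.3e-09). In both genes every 2-DG sample was below every other sample of these groups, and Ldha under oligomycin overlapped mock (-0.01, adjusted p = 0.87). Slc16a3 (MCT4), a lactate exporter, read 8.62, 8.65 and 7.20 against 32.0, 34.7 and 34.15 FPKM (-1.92, SE 0.08, adjusted p = 6e-11), and Tpi1, triosephosphate isomerase, read 92.2, 96.5 and 89.5 against 177, 188 and 193 FPKM (-0.99, SE 0.06, adjusted p = 1.8e-09).

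Of 20 genes of glycolysis and lactate export, 13 were lower and 4 higher under 2-DG (median -0.50), beside 33.2% and 37.7% of all genes. Against mock, 15 fell and 1 rose under 2-DG (median -0.45), while 7 fell and 7 rose under oligomycin (median 0.02). Of all genes, 26.8% fell and 21.4% rose under 2-DG and 41.7% fell and 34% rose under oligomycin, so the shares of the list under oligomycin were near those of all genes. Hk2, a hexokinase of the family that phosphorylates 2-DG, read 24.8, 26.0 and 25.25 FPKM under 2-DG and 26.7, 24.0 and 22.5 FPKM under oligomycin, so the groups overlapped (0.06, SE 0.06, adjusted p = 0.4). Without oligomycin replicate 1 its difference was 0.12 (limma adjusted p = 0.049). Gapdh went against the list at 105.5, 108 and 81.2 against 37.5, 48.75 and 42.2 FPKM (1.18, SE 0.12, adjusted p = 9.9e-07), but it has many processed copies in the mouse genome, and its value is uncertain where reads were shared among them.

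The list of glucose transport and glucose-phosphate sensing was divided: of 10 tested genes, 3 were higher and 3 lower under 2-DG (median 0.01). Of all genes tested, 37.7% were higher and 33.2% lower. Txnip and Arrdc4 encode arrestin-like proteins that restrain glucose uptake, and the factor MondoA switches them on when glucose 6-phosphate accumulates. Arrdc4 read 27.5, 27.2 and 28.6 FPKM under 2-DG, 12.6, 13.0 and 11.6 FPKM in mock and 8.11, 7.68 and 7.94 FPKM under oligomycin (1.69, SE 0.05, adjusted p = 4.7e-12). Txnip read 46.7, 48.45 and 48.9, then 46.9, 45.3 and 44.5, then 23.8, 29.25 and 28.5 FPKM in the same order (0.80, SE 0.07, adjusted p = 2.9e-07). The 3 groups of Arrdc4 were apart, whereas Txnip under 2-DG did not pass against mock (0.07, adjusted p = 0.44) and fell under oligomycin (-0.73). Tigar, a phosphatase that lowers fructose 2,6-bisphosphate, read 20.4, 20.7 and 21.2 FPKM under 2-DG and 5.83, 6.36 and 6.64 FPKM under oligomycin (1.58, SE 0.05, adjusted p = 1.5e-11).

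Targets of the hypoxia-inducible factors (HIF), which raise vessel growth, collagen modification and glycolysis when oxygen is short, were mostly higher under oligomycin than under 2-DG. Adm, the vasodilator adrenomedullin, read 9.21, 7.93 and 8.70 FPKM under 2-DG and 36.0, 46.8 and 45.4 FPKM under oligomycin, with mock at 7.80, 9.74 and 8.57 FPKM (-2.18, SE 0.09, adjusted p = 1.1e-10). Vegfa, the vascular growth factor, read 35.6, 32.5 and 30.9 against 57.5, 62.2 and 61.9 FPKM, with mock at 20.1, 21.3 and 21.2 FPKM (-0.86, SE 0.05, adjusted p = 5e-09). Adm under 2-DG overlapped mock, whereas Vegfa rose under both agents (0.63 and 1.49). P4ha1, a collagen prolyl hydroxylase, read 31.0, 30.3 and 30.5 against 107, 107.5 and 106 FPKM (-1.77, SE 0.04, adjusted p = 1.2e-12). Of the 19 targets tested, 16 were lower and 1 was higher under 2-DG (median -0.81), beside 33.2% and 37.7% of all genes. The exception was the histone demethylase Kdm3a (1.12). Pdk1, the pyruvate dehydrogenase kinase, had a difference of -0.01 (adjusted p = 0.87) and fell under both agents (-1.25 and -1.24 against mock). Both genes were named after their values were seen. The summed fibroblast markers moved with this list (1722 to 1857 against 3894 to 4459 FPKM), and their part was not tested.

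The lists of oxidative phosphorylation, the process that oligomycin blocks, had small median differences. Of all genes tested, 70.8% were called between the agents, 37.7% higher and 33.2% lower under 2-DG, with a median of 0.04. Of 18 nuclear genes for ATP synthase, 8 were higher and 2 lower under 2-DG, with a median of 0.25. Atp5b, the catalytic beta subunit, read 480.1, 472 and 458 FPKM under 2-DG and 306, 309 and 318 FPKM under oligomycin, with mock at 396, 405 and 423 FPKM (0.59, SE 0.05, adjusted p = 4.8e-08). It rose under 2-DG (0.20) and fell under oligomycin (-0.39). The higher count was 5 in a fit of the 6 samples alone and 13 with the length trend removed. Of 35 genes of complex I, 5 were higher and 8 lower (median -0.05), and without oligomycin replicate 1 these counts were 3 higher and 19 lower. The lower count was 3 without oligomycin replicate 2 or without replicate 3, and in a fit of the 6 samples alone 3 were higher and 4 lower. Of 24 genes of complexes II to IV, 7 were higher and 1 was lower, which became 8 lower without oligomycin replicate 1. Of the 12 mRNAs encoded in mitochondrial DNA and tested, 4 were higher and 1 was lower. mt-Nd1, a complex I subunit, read 1889, 1750.0 and 1984 against 1017, 1014 and 999 FPKM (0.89, SE 0.08, adjusted p = 1.1e-07), and nuclear copies of mitochondrial DNA make such values uncertain.

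Genes around the tricarboxylic acid cycle were divided. Of 24 genes of pyruvate dehydrogenase and the cycle, 5 were higher and 10 lower (median -0.05). Of all genes tested, 37.7% were higher and 33.2% lower. The dehydrogenase subunit gene Pdha1 read 64.2, 67.0 and 65.9 FPKM under 2-DG and 42.1, 37.8 and 39.5 FPKM under oligomycin (0.71, SE 0.05, adjusted p = 1.3e-08). Pdk2, a kinase that inhibits the enzyme, read 2.15, 2.37 and 1.60 against 4.62, 3.94 and 4.27 FPKM (-0.80, SE 0.12, adjusted p = 2.3e-05). Of 11 pentose phosphate genes, 4 were higher and 3 lower, near the shares of all genes. Of 16 mitochondrial chaperones and proteases, 8 were higher and 4 lower. Phb, prohibitin of the inner mitochondrial membrane, read 51.3, 49.1 and 47.45 against 19.6, 24.7 and 24.7 FPKM (1.07, SE 0.08, adjusted p = 3e-08) and fell under both agents against mock (-0.40 and -1.48).

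Nearly all cholesterol synthesis genes were below mock under both agents. SREBP2 switches these genes on when sterols run short. Insig1, its feedback inhibitor, read 10.1, 8.90 and 9.04 FPKM under 2-DG and 5.07, 4.90 and 5.85 FPKM under oligomycin, with mock at 31.7, 33.0 and 30.9 FPKM (0.72, SE 0.06, adjusted p = 1.8e-07). Idi1, isopentenyl diphosphate isomerase, read 6.84, 6.997 and 7.06 against 3.34, 2.101 and 2.60 FPKM, with mock at 21.95, 19.7 and 18.65 FPKM (1.13, SE 0.10, adjusted p = 1.2e-07). Both genes were far below mock in all 6 treated samples and lowest under oligomycin. Of 24 genes of the pathway, 23 fell against mock under 2-DG and 23 under oligomycin (medians -0.96 and -1.17), where 26.8% and 41.7% of all genes fell. Between the agents 13 were higher and 5 lower under 2-DG (median 0.18), beside 37.7% and 33.2% of all genes. In fatty acid synthesis, 13 of 15 genes fell under 2-DG and 12 under oligomycin. Fasn, the synthase, read 40.9, 38.6 and 35.7 against 19.3, 14.15 and 15.6 FPKM (1.19, SE 0.10, adjusted p = 1.3e-07).

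Lysosome and autophagy genes were mostly higher under oligomycin than under 2-DG. Of 25, 17 were lower and 5 higher under 2-DG (median -0.49), beside 33.2% and 37.7% of all genes. Against mock, 15 rose under 2-DG and 21 under oligomycin, where 21.4% and 34% of all genes rose. Under quantile normalization 3 of the list were higher under 2-DG than under oligomycin. Ctsl, a lysosomal protease, read 62.9, 66.6 and 70.35 FPKM under 2-DG and 112, 127 and 132 FPKM under oligomycin, with mock at 49.3, 49.1 and 51.3 FPKM (-0.88, SE 0.06, adjusted p = 2.4e-08). Ulk1, the kinase that starts autophagy, went the other way at 46.0, 40.3 and 41.1 against 17.4, 12.5 and 13.98 FPKM (1.49, SE 0.09, adjusted p = 3.3e-09). In both genes the groups were apart. Of 21 NRF2 targets, genes of the antioxidant response, 8 were higher and 8 lower, near the 37.7% and 33.2% of all genes. Nqo1, a quinone reductase, read 41.8, 46.1 and 45.2 against 92.7, 104 and 104.5 FPKM (-1.16, SE 0.06, adjusted p = 7.1e-10), and Gsr, glutathione reductase, read 52.0, 56.8 and 57.35 against 18.1, 23.3 and 21.5 FPKM (1.37, SE 0.07, adjusted p = 1.3e-09). Under 2-DG neither Nqo1 (0.12) nor Gsr (0.01) passed against mock.

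Genes of fibroblasts, smooth muscle and transforming growth factor beta (TGF-beta) signalling were lower under 2-DG in nearly every case. Col1a1, a chain of type I collagen, read 516, 491 and 435 FPKM under 2-DG and 1294, 1230.0 and 1243 FPKM under oligomycin, with mock at 426, 419 and 434 FPKM (-1.39, SE 0.07, adjusted p = 6e-10). Acta2, smooth muscle actin, read 392, 397 and 383 against 2231, 2477 and 2403 FPKM, with mock at 567, 577 and 588 FPKM (-2.60, SE 0.05, adjusted p = 1.6e-13). The oligomycin samples of both genes were above every 2-DG and mock sample. Under 2-DG Col1a1 did not pass against mock (0.17, adjusted p = 0.061), and Acta2 fell (-0.56). Of 21 fibroblast markers tested, 20 were lower and 0 higher, with Dcn not called (-0.09, adjusted p = 0.26). Of 16 smooth muscle genes, all were lower. Of 17 TGF-beta ligands and targets, 16 were lower and 0 higher, with the receptor gene Tgfbr1 not called (0.18, adjusted p = 0.054) but called higher without 2-DG replicate 1 or without oligomycin replicate 1. The medians of the lists were -0.94, -1.60 and -1.12. Among all genes tested, 33.2% were lower and 37.7% higher, with a median of 0.04.

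Macrophage and interferon genes were mostly lower under 2-DG as well. Of 16 macrophage markers, 15 were lower and 1 was higher, Laptm5 (0.45), with a median of -0.89. Of all genes tested, 33.2% were lower and 37.7% higher. The lower count was 9 with a filter of 5 FPKM, which tests fewer genes. Lyz2, a lysozyme of macrophages, read 34.3, 36.8 and 35.1 FPKM under 2-DG and 121, 107 and 113.5 FPKM under oligomycin, with mock at 99.5, 88.45 and 97.4 FPKM (-1.66, SE 0.10, adjusted p = 2.4e-09). C1qa, a complement component, read 1.445, 1.95 and 2.01 against 6.89, 7.29 and 6.88 FPKM, with mock at 14.5, 13.0 and 16.3 FPKM (-1.52, SE 0.13, adjusted p = 8.3e-08). Both genes fell under 2-DG (-1.40 and -2.48 against mock), and C1qa fell under oligomycin too (-0.95). Of the list, 11 fell and 1 rose under 2-DG, and 3 fell and 9 rose under oligomycin, beside 26.8%, 21.4%, 41.7% and 34% of all genes in that order. Of 18 interferon response genes, 16 were lower and 1 was higher under 2-DG, the exception being Ifitm1, and 2 were higher without oligomycin replicate 2 or with a replicate block. Isg15, a ubiquitin-like modifier, read 23.4, 23.0 and 20.7 against 69.6, 101 and 97.9 FPKM (-1.94, SE 0.12, adjusted p = 4.5e-09). The summed interferon genes were 677 to 738 FPKM under 2-DG, 1156 to 1485 FPKM under oligomycin and 767 to 815 FPKM in mock.

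Set beside the mock samples, the agents differed in how many genes were called. Under 2-DG 6401 genes were called against mock (48.2%), 2845 of them higher (21.4%) and 3556 lower (26.8%). Under oligomycin 10067 were called (75.8%), 4523 higher (34%) and 5544 lower (41.7%). These comparisons share the same 3 mock samples, so their values are given side by side and no overlap between them is read. Of the ER chaperones, 19 of 20 rose and 0 fell under 2-DG, and 9 rose and 3 fell under oligomycin, with medians of 0.72 and 0.12. Of the HIF targets, 4 rose and 8 fell under 2-DG, and 14 rose and 3 fell under oligomycin. Of the p53 targets, 5 rose and 9 fell under 2-DG, and 13 rose and 3 fell under oligomycin. Of the fibroblast markers, 8 rose and 4 fell under 2-DG, and 20 rose and 0 fell under oligomycin. Of the smooth muscle genes, 1 rose and 9 fell under 2-DG, and 16 rose and 0 fell under oligomycin.

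**Figure D4:**
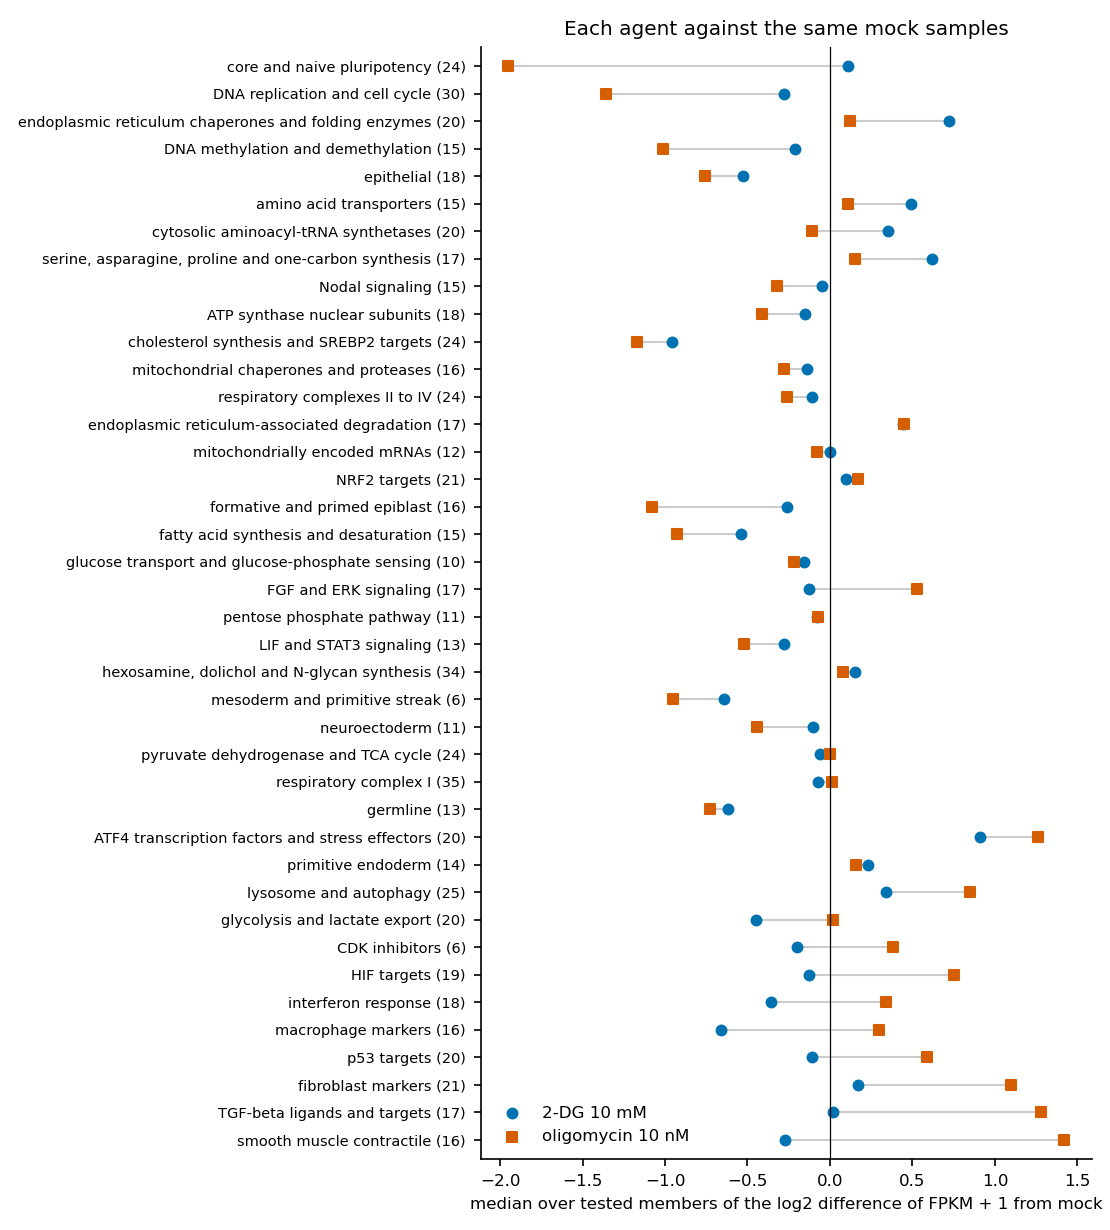
Median over the tested members of each gene list of the log2 difference of FPKM + 1 from the mock samples, for 10 mM 2-DG and 10 nM oligomycin, with both agents compared with the same 3 mock samples. The medians of the pluripotency genes (0.11 under 2-DG and -1.95 under oligomycin) lie far apart, cholesterol genes (-0.96 and -1.17) are low and ATF4 genes (0.91 and 1.26) high under both.

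The lower dose of each agent is given beside these values as a description, with no test. Hspa5 averaged 213 ± 6.365 FPKM (SD, n = 3 here and below) in mock, 404 ± 15.9 at 5 mM and 491 ± 25.5 at 10 mM 2-DG, and 214 ± 14.5 at 1 nM and 222 ± 17.6 at 10 nM oligomycin. Pou5f1 averaged 122 ± 11.6 FPKM in mock, 123 ± 6.40 and 109 ± 9.71 at the same 2-DG doses, and 66.5 ± 1.14 and 30.2 ± 4.87 at the oligomycin doses. The mean of Hspa5 was well above mock at both 2-DG doses, and that of Pou5f1 well below it at both oligomycin doses. Ldha averaged 381 ± 20.4 FPKM in mock, 238 ± 4.66 and 191 ± 2.925 under 2-DG, and 260.4 ± 16.7 and 378 ± 21.2 under oligomycin, so that its mean was below mock at the low oligomycin dose and near it at the high one. Acta2 averaged 577.5 ± 10.3 FPKM in mock, 369 ± 5.09 and 391 ± 7.27 under 2-DG, and 1747 ± 44.8 and 2370.0 ± 126 under oligomycin. Ddit3 averaged 9.16 ± 0.0660 FPKM in mock, 19.7 ± 0.3125 and 30.85 ± 0.373 under 2-DG, and 39.65 ± 1.83 and 45.7 ± 5.98 under oligomycin, above mock at every dose.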

How the data were processed

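RNA was sequenced from 15 samples of mouse embryonic stem cells, 3 in each of 5 groups. The authors deposited 1 table of FPKM values per gene, with no counts. Per the submitters' processing notes the build was GRCm38 and the tools included HTSeq 0.6.0, HISAT2 2.1.0 and Bowtie2 2.2.3, whose roles are not given. The strand setting of the counting is not given in the sources used here, so overlapping and antisense genes cannot be told apart. In the table, 26 symbols that a spreadsheet had turned into dates were restored, and 1 emptied line was left out. Exon lengths came from the GENCODE annotation of GRCm38 for 32077 genes, and 93.1% of genes had the same start and end there as in the table. Depth was recovered from the steps between low FPKM values: 95.4 to 96.0% of values of up to 20 reads came out within 0.05 of a whole number.

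Genes with FPKM of at least 1 in at least 3 samples were tested with limma 3.58.1 in R 4.3.3 on log2(FPKM + 1), with 1 mean per group, a trended prior and all 15 samples sharing 1 estimate of the spread. P-values were two-sided, adjusted by Benjamini-Hochberg over all genes tested, with a threshold of 0.05. FPKM values are not counts, so no count model was used. The scripts were tested on simulated data. Alternatives were a pseudocount of 0.1, no filter, a filter of 5 FPKM, the compared groups alone, median ratio scaling, quantile normalization, removal of the trend with exon length, a replicate block, and each replicate left out.

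The groups, gene lists and tests were chosen with earlier results of these data known. Named genes were the 12 largest differences in each direction (called, groups not overlapping, mean of at least 5 FPKM in 1 group, leaving out predicted genes, ribosomal, small nuclear and small nucleolar RNA genes and pseudogenes), up to 4 called members of each list with the largest difference, and a fixed set such as Pou5f1, Hspa5 and Ldha. Not every gene of the rule is printed. Other genes named as exceptions of a list were chosen after their values were seen. Promoter windows came from RefSeq on GRCm38.p6, from 250 bases before to 50 bases after each start, and the motifs were searched on both strands.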

Additional observations from a re-analysis of the deposited data

How the results depend on the processing

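The count of genes called between the agents (9411) stayed within 1.5 times under every alternative run, from 6553 with a filter of 5 FPKM to 10556 with no filter. With the filter of 5 FPKM, which tests fewer genes, 2824 genes were lower under 2-DG than under oligomycin, 2354 were lower under 2-DG than in mock and 2985 were higher under oligomycin than in mock. Median ratio scaling gave 4689 higher and 4772 lower genes between the agents and changed the median difference by -0.04. Leaving out 1 replicate at a time gave 8922 to 9532 genes between the agents (4727 to 4959 higher and 4122 to 4573 lower), 5458 to 5830 for 2-DG against mock (2401 to 2610 higher and 3009 to 3220 lower) and 9593 to 10095 for oligomycin against mock (4316 to 4642 higher and 5263 to 5463 lower). Same-numbered 2-DG and oligomycin samples had deviations that correlated at 0.03, 0.05 and -0.04. For oligomycin and mock the values were 0.37, 0.02 and 0.23, and for 2-DG and mock -0.02, 0.03 and -0.09. The labels do not say what the numbers mark, and these correlations cannot tell whether they pair the samples. With a replicate block 9333 genes were called between the agents (4974 higher and 4359 lower), 6218 for 2-DG against mock and 10023 for oligomycin against mock. Of 194 named genes, 187 kept their call and direction under all alternatives in which they were tested. Some of the 194 were chosen outside the naming rule, after their values were seen. The others were Trib3, Cdx1, Dpm3, Ndufa6, Atp5e and mt-Nd4, which lost the call under at least 1 alternative, and Hk2, which gained it. The mt-Nd4 difference was -0.04 (limma adjusted p = 0.82) under quantile normalization. None of the 194 changed direction. Not every gene named in the text is among them, and Tgfbr1 is one left out whose call changed. Among the listed genes, the lower count in ATP synthase (2) was 1 under 6 alternatives, that in complexes II to IV (1) was 2 or 3 under 5 and 8 without oligomycin replicate 1, and the higher count of p53 targets (2) was 1 under 3. The cause of these changes was not tested. At about 17400000 to 19200000 reads per sample, a gene at a small fraction of 1 FPKM, such as Otx2 under oligomycin, rests on few reads.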

Other observations

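Some genes outside the lists, named here after their values were seen, also stood far apart between the agents. Tdh, threonine dehydrogenase, which supplies one-carbon units in mouse stem cells, read 58.75, 56.2 and 57.7 FPKM under 2-DG and 8.90, 9.95 and 11.4 FPKM under oligomycin (2.41, SE 0.07, adjusted p = 2.6e-12). Sirt1, a deacetylase that depends on NAD, read 25.6, 26.7 and 30.2 against 5.995, 5.40 and 6.16 FPKM (2.05, SE 0.07, adjusted p = 2.4e-11). Mycn (2.16), a MYC family factor, Alpl (2.43), the alkaline phosphatase that marks stem cells, and the zinc finger gene Zscan10 (2.11) were higher under 2-DG as well, as were the noncoding RNAs Platr10 (2.27) and Platr17 (2.16). In the other direction, Cyr61, a matrix protein gene induced by YAP, read 173, 181 and 173 against 653, 763 and 754 FPKM (-2.03, SE 0.06, adjusted p = 3.4e-12), and Ankrd1 (-1.90), another YAP target, the matrix protease Mmp9 (-2.16) and the chemokine Ccl6 (-2.05) were lower under 2-DG. The adjusted p-values are from limma over all genes tested.

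Lineage lists gave no common direction. Over all genes tested, 37.7% were higher and 33.2% lower under 2-DG than under oligomycin. Of 18 epithelial genes, 10 were higher and 6 lower under 2-DG, with Esrp1, a splicing factor, at 1.41 and the keratins Krt8 and Krt18 at -1.81 and -1.93. Of 14 primitive endoderm genes tested, 3 were higher and 7 lower, with Lama1 (1.59), a laminin chain, and Col4a1 (-1.35), a basement membrane collagen, at the ends. Of 11 neuroectoderm genes, 5 were higher and 5 lower, among them the tubulin gene Tubb3 (2.09) and the adhesion gene Ncam1 (-1.70). Of 13 germline genes, 6 were higher and 5 lower, and of 16 mesoderm and primitive streak genes 6 passed the filter, 2 of them higher and 3 lower. Of 17 genes of FGF and ERK signalling, 7 were higher and 8 lower, and of 13 genes of LIF and STAT3 signalling, 5 were higher and 4 lower, with the kinase gene Pim2 at 1.79 and Junb, of the AP-1 family, at -1.40.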
